A study of Mus musculus with 16 samples.

Results

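The loci described are those of 7 mouse transcription factor genes, Batf, Batf3, Irf4, Irf8, Irf2, Bach2 and Bach1. A peak was taken as a member of a locus where it overlapped the RefSeq gene body extended by 30 kb on each side. By this rule 378 of the 214352 peaks in 12 chromatin immunoprecipitation sequencing (ChIP-seq) peak lists fell in the 7 loci, 195 from vehicle (Veh) cells and 183 from GSK2879552 (GSK) cells. The cells were CD8+ T cells from the spleen of OT1 mice, in which a transgene encodes a T cell receptor that recognises an ovalbumin peptide. Every culture received CD3 and CD28 antibodies together with IL-2 over 48 h, and IL-2 in fresh medium over the next 3 days. GSK blocks LSD1 irreversibly; it was present at 0.5 μM in both phases, or vehicle in its place. Of the 16 samples, 12 were immunoprecipitations, with 6 antibodies (against LSD1, RNA polymerase II or Pol II, H3K27ac, and H3K4me1, H3K4me2 and H3K4me3), and the 4 inputs were not analysed here. Each antibody and treatment had 1 library, so there was no spread between replicates and no test was run, and the values compare these libraries. The labels name a pair of sequencing instruments without saying which library was read on which. The peak lists carry no read numbers. The study's methods list more unique read pairs for the Veh than for the GSK library of H3K27ac, H3K4me2 and LSD1. They list more for GSK than for Veh of H3K4me1, H3K4me3 and Pol II. They also state that libraries were randomly picked to equal read numbers for comparing signals. The part of depth in the results was not tested.

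BATF and BATF3 are short basic leucine zipper proteins of the AP-1 family that pair with JUN proteins. In T cells they bind next to IRF4 or IRF8 at composite DNA elements in which an AP-1 site lies beside an interferon regulatory factor (IRF) site. BACH2, which pairs with small MAF proteins, occupies AP-1-type sites as a repressor and is known for holding CD8+ T cells back from terminal effector differentiation. BACH1 is a related repressor that senses heme, and IRF2 is best known for opposing IRF1 at interferon response elements. LSD1 is a histone demethylase whose substrates are H3K4me1 and H3K4me2, marks of enhancers and promoter flanks, and not H3K4me3, the mark of active promoters.

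Bach2 held 162 of the 378 peaks, or 42.9%, as its gene body spans 348 kb. Irf2 held 50, Irf8 held 45, Batf held 36, Irf4 held 30, Batf3 held 29 and Bach1 held 26. Per 100 kb, Veh H3K4me1 peaks numbered between 3.18 at Bach1 and 11.2 at Irf8, against a median of 2.32 over 26178 genes treated in the same way. Irf8 stood at the 98.4 percentile of these genes for Veh H3K4me1 and Irf4 at the 97.5 percentile. For Veh LSD1 peaks per 100 kb, Batf3 stood at the 97.9 percentile and Irf8 at the 95.9 percentile. For H3K27ac, Batf (94.9) and Bach2 (92.9) had the highest percentiles in Veh and Irf8 (97) and Bach2 (96.9) in GSK, while Batf3 and Bach1 had 0 peaks in both. The loci were thus far from alike, and counts summed over the 7 are weighted to Bach2.

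Between treatments, LSD1 peaks numbered 36 in Veh and 34 in GSK, a ratio of 0.944, beside 0.937 for the whole LSD1 lists. H3K4me1 peaks numbered 70 in Veh and 78 in GSK, a ratio of 1.11 beside 1.17. Pol II peaks numbered 25 and 22, a ratio of 0.880 beside 0.985. H3K4me3 peaks numbered 19 in Veh and 26 in GSK, a ratio of 1.37 beside 1.07 for the lists. With the H3K4me3 lists at equal length they numbered 19 in Veh and 21 in GSK. H3K4me2 peaks numbered 22 in Veh and 9 in GSK, a ratio of 0.409 beside 0.620. H3K27ac peaks numbered 23 in Veh and 14 in GSK, a ratio of 0.609 beside 0.371. With the longer list of each antibody shortened to its most significant peaks, the loci held 9 Veh against 9 GSK H3K4me2 peaks and 13 Veh against 14 GSK H3K27ac peaks, so neither count was lower in GSK at equal list length. The study lists more unique read pairs in Veh for both marks, and the part of depth in these counts was not tested.

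**Figure D1:**
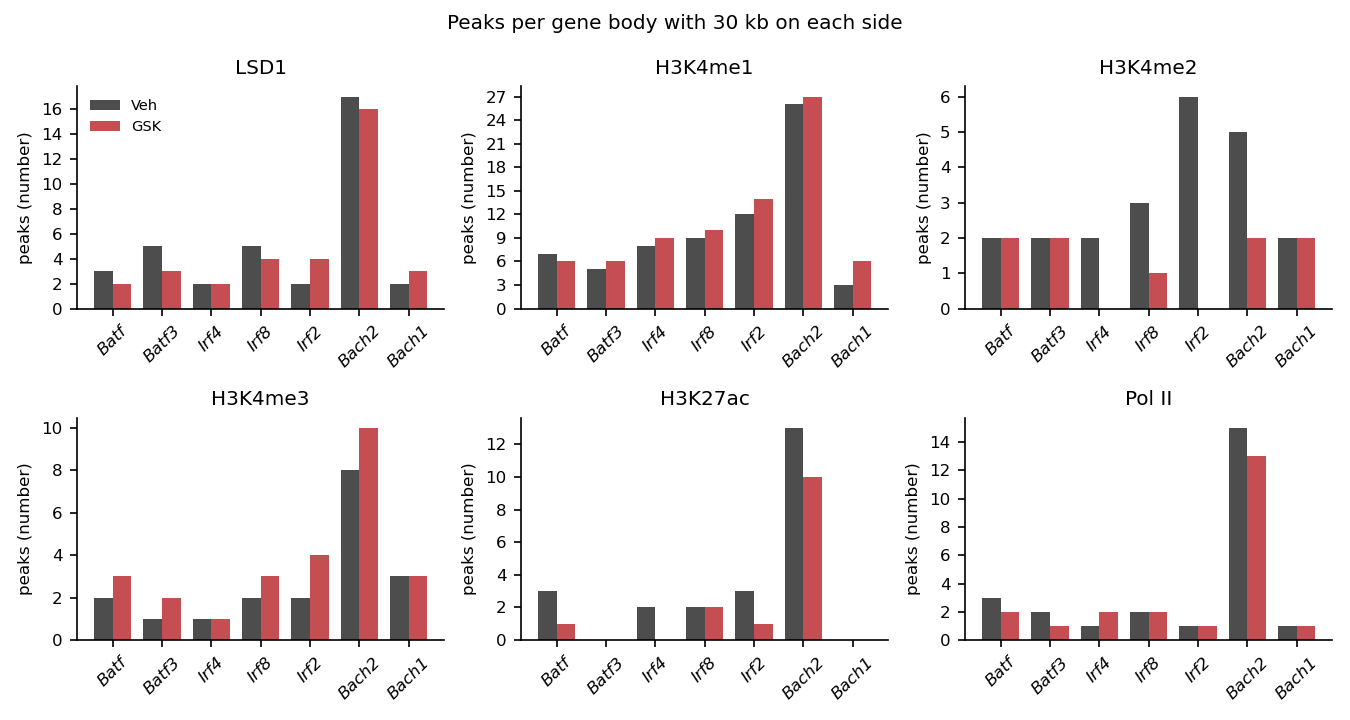
Number of peaks (vertical axis) at each gene body with 30 kb on each side (horizontal axis), in a panel for each antibody. Grey bars are Veh and red bars GSK, 1 library each; Bach2 has most peaks for 5 of the 6 antibodies, and Irf2 has 6 H3K4me2 peaks in Veh and 0 in GSK.

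The share of Veh peaks that a GSK peak overlapped by at least 1 bp was next set beside the same share over the whole list, for peaks more than 1 kb from every curated RefSeq transcription start site (TSS). Peaks at predicted starts, such as the upstream start of Bach2 described below, count as outside TSSs here. Shares carry Wilson 95% intervals, which cover counting error only. For LSD1, 16 of 28 Veh peaks were overlapped, 57.1% (39.1 to 73.5), and the whole list gave 34.9%. For H3K27ac, 14 of 19 were overlapped, 73.7% (51.2 to 88.2), and the list gave 29.1%. For Pol II, 8 of 20 were overlapped, 40.0% (21.9 to 61.3), against 14.3% of the list. In these 3 the interval lay above the list value, but the interval treats peaks of the same locus as independent. Bach2 gave most of the overlapped peaks. At the other 6 loci the counts were 6 of 13 for LSD1 (46.2%), 4 of 7 for H3K27ac (57.1%) and 0 of 6 for Pol II. The Pol II share was thus below the list there. For LSD1 and H3K27ac these counts are too few to show an excess outside Bach2.

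For H3K4me2, 3 of 17 Veh peaks outside TSSs were overlapped, 17.6% (6.19 to 41.0), and the list gave 38.8%, inside the interval. For H3K4me1, 62 of 69 were overlapped, 89.9%, beside 87.7% of the list. All 12 Veh H3K4me3 peaks outside TSSs had a GSK peak, beside 92.0% of the list. In the reverse direction, a Veh peak overlapped 16 of 28 GSK LSD1 peaks (57.1%, list 43.7%), 61 of 74 for H3K4me1 (82.4%, list 75.9%), 3 of 5 for H3K4me2 (60.0%, list 81.7%), 12 of 19 for H3K4me3 (63.2%, list 77.7%), 14 of 14 for H3K27ac (list 95%) and 8 of 16 for Pol II (50.0%, list 12.9%). At TSSs inside the loci, those of neighbouring genes included, 6 of 8 Veh LSD1 peaks (list 83.0%) and 5 of 6 GSK LSD1 peaks (list 71.9%) were overlapped.

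**Figure D2:**
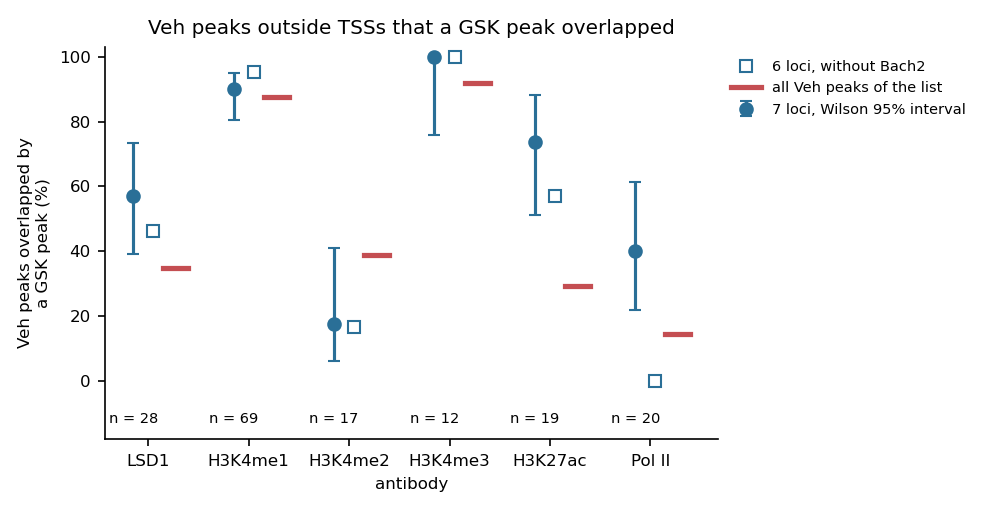
Share of Veh peaks outside TSSs that a GSK peak overlapped (vertical axis, %) for each antibody (horizontal axis). Filled circles with bars are the 7 loci with Wilson 95% intervals, open squares the 6 loci without Bach2 and red lines the whole list; LSD1, H3K27ac and Pol II lie above the list with Bach2, and Pol II is at 0 without it.

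The strength of the peaks differed from the lists too. Veh H3K27ac peaks outside TSSs at the loci had a median −log10 p of 11.5, against 8.83 over the list, and Veh LSD1 peaks 7.54 against 6.19. Among Veh H3K27ac peaks outside TSSs with a −log10 p from 10 to 20, a GSK peak overlapped 10 of 12 at the loci and 56.5% of the list. Among those below 10 the counts were 4 of 7 and 14.1%. For Veh LSD1 peaks outside TSSs a GSK peak overlapped 7 of 17 beside 24.0% below 10, 6 of 8 beside 65.5% from 10 to 20, and 3 of 3 beside 87.6% from 20 up.

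LSD1 and H3K27ac peaks outside TSSs lay on each other more often than list-wide, except among Veh-only H3K27ac peaks. All 14 Veh H3K27ac peaks outside TSSs with a GSK counterpart also held a Veh LSD1 peak (interval from 78.5%), beside 65.5% of such peaks in the list, and 2 of the 5 in Veh only did, beside 43.2%. Seen from LSD1, 12 of 16 Veh LSD1 peaks found in both treatments lay on a Veh H3K27ac peak, 75.0% (50.5 to 89.8) beside 22.3% of the list. Of the 12 Veh-only LSD1 peaks, 5 did, 41.7% (19.3 to 68.0) beside 7.24%. H3K4me1 did not set the loci apart in the same way: a Veh H3K4me1 peak lay on 9 of the 16 LSD1 peaks of both treatments (list 64.3%) and on 5 of the 12 in Veh only (list 39.1%). Of the 12 GSK-only LSD1 peaks, 8 lay on a GSK H3K4me1 peak, 66.7% (39.1 to 86.2) beside 33.5%. Veh Pol II peaks outside TSSs lay on Veh H3K27ac in 6 of 8 cases where GSK had the peak too (list 69.3%) and in 4 of 12 where it did not, 33.3% (13.8 to 60.9) beside 8.02%. Peaks of different antibodies in one region share that region, and many of these regions lie in Bach2, so the peaks are not independent of each other.

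Of 14 Veh-only H3K4me2 peaks outside TSSs, 12 lay on a GSK H3K4me1 peak (85.7%, list 76.6%) and 8 on a GSK H3K4me3 peak (57.1%, list 41.5%), so most of these positions carried an H3K4me1 peak under GSK. Of the 7 GSK-only H3K4me3 peaks outside TSSs, 6 lay on an LSD1 peak of either treatment (85.7%, 48.7 to 97.4, list 50.0%) and 6 on a Veh H3K4me1 peak (list 62.5%). For these H3K4me2 and H3K4me3 shares the list value lay inside the Wilson interval in every case.

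At the start sites, H3K4me3 marked 6 of the 7 genes in both treatments and no list marked the curated start of Bach2. Over 31603 promoters, windows of 1 kb on either side of a curated start, 49.4% had an H3K4me3 peak in Veh and 50.6% in GSK. LSD1 peaks stood at 5 of the 7 genes in Veh (35.2% of promoters) and 4 in GSK (40.7%), with Batf3, Irf8 and Bach1 in both. Pol II peaks stood at Batf, Irf4, Irf8 and Bach1 in both treatments (28.3% of promoters in Veh, 24.0% in GSK) and at none of Batf3, Irf2 and the curated start of Bach2. H3K4me2 peaks stood at Batf, Batf3, Irf8 and Bach1 in both (38.2% and 27.4%). H3K4me1 peaks stood at Batf in both, and at Batf3 and Bach1 in GSK only (29.4% and 35.7%). H3K27ac peaks stood at Batf, Irf4 and Irf2 in Veh and at no member in GSK (20.3% and 8.51%). Those 3 were weak, with a −log10 p from 7.10 to 8.62, and 19.8% of all Veh H3K27ac TSS peaks below 10 had a GSK counterpart. With H3K27ac lists of equal length no member had an H3K27ac promoter peak in either treatment. Counted per gene over 26180 genes, a Veh-only promoter peak was found at 4.44% for LSD1 and 12.3% for H3K27ac. A GSK-only promoter peak was found at 9.74% for LSD1 and 9.85% for H3K4me1.

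**Figure D3:**
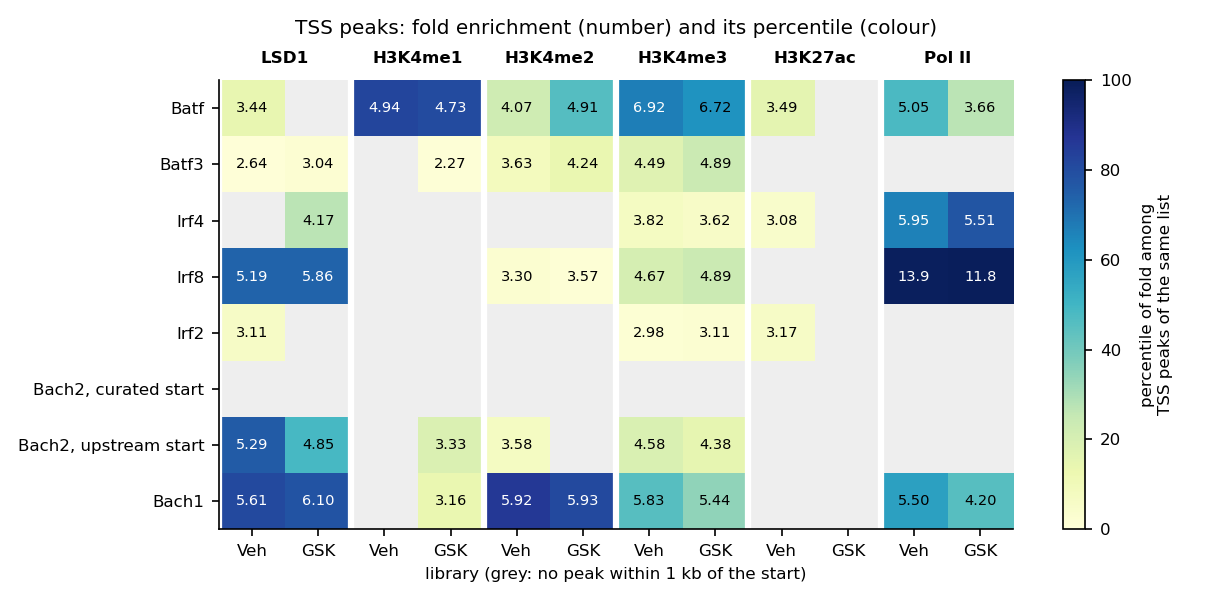
Fold enrichment (numbers) of the strongest peak within 1 kb of each start (rows) in each library (columns), coloured by its percentile among TSS peaks of the same list. Grey cells have no peak; the H3K27ac column is empty for GSK, and the Irf8 Pol II peaks, at 13.9 and 11.8, lie at the top of their lists.

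Batf (gene 53314, chr12:85686720-85709087, + strand, mm10) is the family member induced by T cell receptor signals. Its TSS had an H3K4me3 peak of 6.92-fold in Veh and 6.72-fold in GSK, at the 67.1 and 61.5 percentiles of TSS peaks in their lists. The Pol II peak there was 5.05-fold in Veh (48.0 percentile) and 3.66-fold in GSK (27 percentile). The H3K4me2 peak was 4.07-fold and 1808 bp wide in Veh, and 4.91-fold and 426 bp wide in GSK. H3K4me1 gave 4.94-fold and 4.73-fold. LSD1 at 3.44-fold and H3K27ac at 3.49-fold had a TSS peak in Veh only, low in their lists (14.4 and 15.3 percentiles).

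A second region with peaks of all 6 antibodies lay in intron 2 of Batf, from 16.8 to 19.5 kb past the start. LSD1 was 4.94-fold in Veh and 4.43-fold in GSK, and H3K27ac was 4.30-fold in Veh and 5.18-fold in GSK, at the 83.6 and 79.7 percentiles of peaks outside TSSs. H3K4me3 was 4.96-fold in Veh (53.5 percentile) and 6.01-fold in GSK (73.4 percentile). The H3K4me2 peak was 1318 bp wide in Veh and 442 bp wide in GSK. A Pol II peak of 4.91-fold (92.1 percentile) stood there in Veh only. The widest H3K4me1 peak of the locus covered this region, 2638 bp in Veh and 2626 bp in GSK.

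The strongest Batf LSD1 peak outside the TSS lay at −26.0 kb, upstream of the start and in an intron of the predicted noncoding gene Gm33312. It was 5.50-fold in Veh (708 bp, −log10 p 14.1) and 4.75-fold in GSK (1765 bp, −log10 p 8.92). On it, H3K27ac had a 267 bp peak in Veh only, 5.13-fold and at the 95.6 percentile, and H3K4me3 a 179 bp peak of 4.57-fold in GSK only, inside the wide GSK LSD1 peak. The 300 bases centred on the Veh summit hold an AP-1 site, shown in capitals here because TGANTCA is the site that BATF and JUN themselves bind (RefSeq GRCm38.p6, chr12:85660580-85660879, + strand).
Batf upstream LSD1 summit: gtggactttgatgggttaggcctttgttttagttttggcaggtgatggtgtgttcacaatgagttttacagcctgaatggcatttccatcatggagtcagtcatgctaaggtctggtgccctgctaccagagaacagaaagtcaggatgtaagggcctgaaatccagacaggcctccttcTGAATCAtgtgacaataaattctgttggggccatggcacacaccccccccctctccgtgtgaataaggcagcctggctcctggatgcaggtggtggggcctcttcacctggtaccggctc

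Batf3 (gene 381319, chr1:191098414-191108943, + strand) encodes the BATF paralogue known for cross-presenting dendritic cells and for memory CD8+ T cells. Its TSS bore H3K4me3 at 4.49-fold in Veh and 4.89-fold in GSK, H3K4me2 at 3.63 and 4.24-fold, and LSD1 at 2.64 and 3.04-fold. These LSD1 folds were among the lowest of all TSS peaks, at the 0.524 percentile in Veh and the 2.19 percentile in GSK. H3K4me1 reached the TSS in GSK only, at 2.27-fold. No H3K27ac peak was found anywhere in the locus in either treatment, and Pol II had no TSS peak.

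The region 25.2 to 27.8 kb past the Batf3 start, beyond the end of the gene, carried the strongest LSD1 peak of the locus. It was 7.81-fold in Veh (95 percentile of peaks outside TSSs, −log10 p 23.0) and 7.49-fold in GSK (96.0 percentile, −log10 p 18.4). In GSK only, an H3K4me2 peak of 346 bp and 5.61-fold and an H3K4me3 peak of 252 bp and 6.53-fold (80.8 percentile) sat on it. An LSD1 peak next to it, 26.0 kb past the start, was found in Veh only at 3.56-fold. In intron 2, 4.47 kb in, LSD1 was 3.50-fold in Veh and 4.11-fold in GSK, and a peak at −3.04 kb was in Veh only at 3.71-fold. The sequence under the strongest summit is 62.3% G and C, with an ETS core in capitals (chr1:191125796-191126095, + strand).
Batf3 downstream LSD1 summit: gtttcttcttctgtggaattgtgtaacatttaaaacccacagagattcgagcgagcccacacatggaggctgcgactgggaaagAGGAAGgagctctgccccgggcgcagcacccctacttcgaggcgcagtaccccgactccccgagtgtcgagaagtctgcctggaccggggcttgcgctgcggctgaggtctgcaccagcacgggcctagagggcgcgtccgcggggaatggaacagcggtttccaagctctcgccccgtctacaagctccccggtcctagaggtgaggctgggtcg

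Irf4 (gene 16364, chr13:30749233-30766981, + strand) encodes the IRF whose level follows T cell receptor signal strength and which pairs with BATF. A broad H3K4me3 peak covered its TSS, 2281 bp in Veh and 2296 bp in GSK, of low fold (3.82 and 3.62, at the 7.21 and 5.47 percentiles) but high −log10 p (69.3 and 59.5). Pol II at the TSS was 5.95-fold in Veh (66.3 percentile) and 5.51-fold in GSK (77.7 percentile), and GSK had a further weak Pol II peak of 2.56-fold at −0.896 kb. LSD1 had a TSS peak in GSK only, 4.17-fold with a −log10 p of 7.23, and H3K27ac in Veh only, 3.08-fold with a −log10 p of 7.10. Neither H3K4me1 nor H3K4me2 had a TSS peak.

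No LSD1 peak of Irf4 was shared between treatments. In Veh the pair lay at −29.3 kb (3.65-fold, −log10 p 4.45) and 28.6 kb past the start (3.58-fold, −log10 p 4.73), and in GSK the other pair lay at the TSS and 43.3 kb past the start, in an intron of the neighbour Exoc2 (2.49-fold, −log10 p 3.08). The 3 outside the TSS are close to the lowest −log10 p in the LSD1 lists, 3.01. List-wide, a GSK peak overlapped 24.0% of Veh LSD1 peaks outside TSSs below a −log10 p of 10. All 8 Veh H3K4me1 peaks, by contrast, had a GSK peak. The widest was 2720 bp in Veh, 38.0 kb past the start, and 3434 bp in GSK, 42.5 kb past the start in Exoc2. H3K4me2 had 2 peaks in Veh, at 4.82 and 3.76-fold, and 0 in GSK, and an H3K27ac peak of 3.86-fold in Exoc2 was in Veh only. The window 28.6 kb past the start holds none of the motifs searched (chr13:30777683-30777982, + strand).
Irf4 downstream LSD1 summit: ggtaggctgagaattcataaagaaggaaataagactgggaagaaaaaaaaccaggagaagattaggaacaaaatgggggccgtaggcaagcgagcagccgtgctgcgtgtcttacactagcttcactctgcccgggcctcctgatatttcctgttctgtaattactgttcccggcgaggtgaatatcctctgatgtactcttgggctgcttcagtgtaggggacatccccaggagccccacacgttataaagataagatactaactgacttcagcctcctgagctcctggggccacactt

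Irf8 (gene 15900, chr8:120736358-120756694, + strand) encodes the other IRF partner of BATF, also used in dendritic cells and B cells. Its TSS Pol II peak was the highest of the members, 13.9-fold in Veh and 11.8-fold in GSK, at the 98.6 and 98.9 percentiles of TSS peaks. H3K4me3 there was 4.67-fold in Veh and 4.89-fold in GSK, and LSD1 was 5.19-fold in Veh (73.6 percentile) and 5.86-fold in GSK (73.8 percentile). H3K4me2 was 3.30 and 3.57-fold, low in both lists. H3K27ac had no TSS peak in either treatment. Around the second curated start a weak H3K4me2 peak of 3.26-fold was in Veh only.

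Upstream of Irf8 lay 2 regions with LSD1, H3K4me1, H3K27ac and Pol II. In the farther, from −21.4 to −18.3 kb, LSD1 was 4.54-fold in Veh and 5.94-fold in GSK, at the 63.2 and 88.1 percentiles. H3K27ac was 3.57-fold over 2019 bp in Veh (43.0 percentile) and 4.28-fold over 1617 bp in GSK (32.2 percentile). There an H3K4me3 peak of 4.0-fold and a Pol II peak of 3.91-fold were in GSK only, and a further LSD1 peak of 5.03-fold, with a −log10 p of 15.7, was in Veh only. In the nearer, from −11.6 to −8.33 kb, all 6 antibodies had a peak. LSD1 was 3.73-fold in Veh and 3.14-fold in GSK, at the 36.5 and 7.65 percentiles. H3K27ac was 3.98 and 4.71-fold (69.3 and 58.6 percentiles), and H3K4me3 was 4.57 and 4.58-fold (42.0 and 39.1 percentiles). H3K4me2 (3.80-fold) and Pol II (4.74-fold, 90.5 percentile) were in Veh only. The only Pol II peak of Irf8 outside its TSS lay in the nearer region in Veh and in the farther region in GSK. Their −log10 p was 7.97 in Veh and 6.99 in GSK. Such peaks seldom overlapped list-wide either, in 14.3% of Veh and 12.9% of GSK Pol II peaks outside TSSs. Downstream, an LSD1 peak of 3.71-fold 38.4 kb past the start was in GSK only, and the widest H3K4me1 peak, 28.3 kb past the start, was 2911 bp in Veh and 2984 bp in GSK.

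The LSD1 peak of Irf8 with the highest −log10 p outside the TSS, 19.5, was a Veh-only peak of 5.65-fold at −12.1 kb, between these regions. No other antibody had a peak on it. Soft-masked bases of the reference, which match known repeats, were counted in the 300 bases around each LSD1 summit. Among Veh-only LSD1 peaks outside TSSs, 1 of 12 at the loci, the Irf8 peak at −12.1 kb, had 50% or more of its summit window soft-masked, beside 24.4% of the list, and among those of both treatments 0 of 16, beside 14.9%. Among GSK-only LSD1 peaks outside TSSs it was 4 of 12, beside 30.9%.

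Irf2 (gene 16363, chr8:46739745-46847458, + strand) had the broadest H3K4me3 TSS peak of the members, 3205 bp in Veh and 3093 bp in GSK, and the lowest in fold (2.98 and 3.11). H3K27ac of 3.17-fold and LSD1 of 3.11-fold had a TSS peak in Veh only, and Pol II in neither. A GSK LSD1 peak of 3.25-fold lay 1.53 kb past the start, under the same H3K4me3 peak but just outside the TSS window. A predicted transcript of Irf2 starts within 1 kb of that peak.

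Among all members, H3K4me2 differed most in number at Irf2, where 6 Veh peaks faced 0 GSK peaks. The 6 were weak to middling, with folds from 3.65 to 5.05 and −log10 p from 6.10 to 11.0, and each lay in a region that had H3K4me1 in both treatments. In 2 of these 6 regions, 113 and 120 kb past the start, an H3K4me3 peak was found in GSK only (4.52 and 4.02-fold). In another, in intron 8 at 104 to 106 kb, H3K4me3 was 5.32-fold in Veh and 5.47-fold in GSK. That intron 8 region had peaks of all 6 antibodies. H3K27ac was 3.84-fold in Veh (60.7 percentile) and 4.87-fold in GSK (65.7 percentile). LSD1 was 3.60-fold in Veh only, and Pol II was 3.34-fold in GSK only. LSD1 peaks of Irf2 were again not shared, and the GSK-only peaks included 5.04-fold 120 kb past the start and 4.17-fold at −26.3 kb. All of them were weak, with −log10 p from 3.80 to 8.81. List-wide, a GSK peak overlapped 24.0% of Veh LSD1 peaks outside TSSs below a −log10 p of 10, and 78.9% at TSSs. The widest H3K4me1 peak, 112 kb past the start, was 2783 bp in Veh and 3314 bp in GSK. The Veh LSD1 summit in intron 8 holds 2 ETS cores, in capitals (chr8:46845155-46845454, + strand).
Irf2 intron 8 LSD1 summit: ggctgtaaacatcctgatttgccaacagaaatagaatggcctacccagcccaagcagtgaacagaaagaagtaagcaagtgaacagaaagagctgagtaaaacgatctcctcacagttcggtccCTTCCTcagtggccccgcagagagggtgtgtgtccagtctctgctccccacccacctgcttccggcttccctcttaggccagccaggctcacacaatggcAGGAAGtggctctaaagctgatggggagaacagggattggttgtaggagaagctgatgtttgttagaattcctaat

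**Figure D4:**
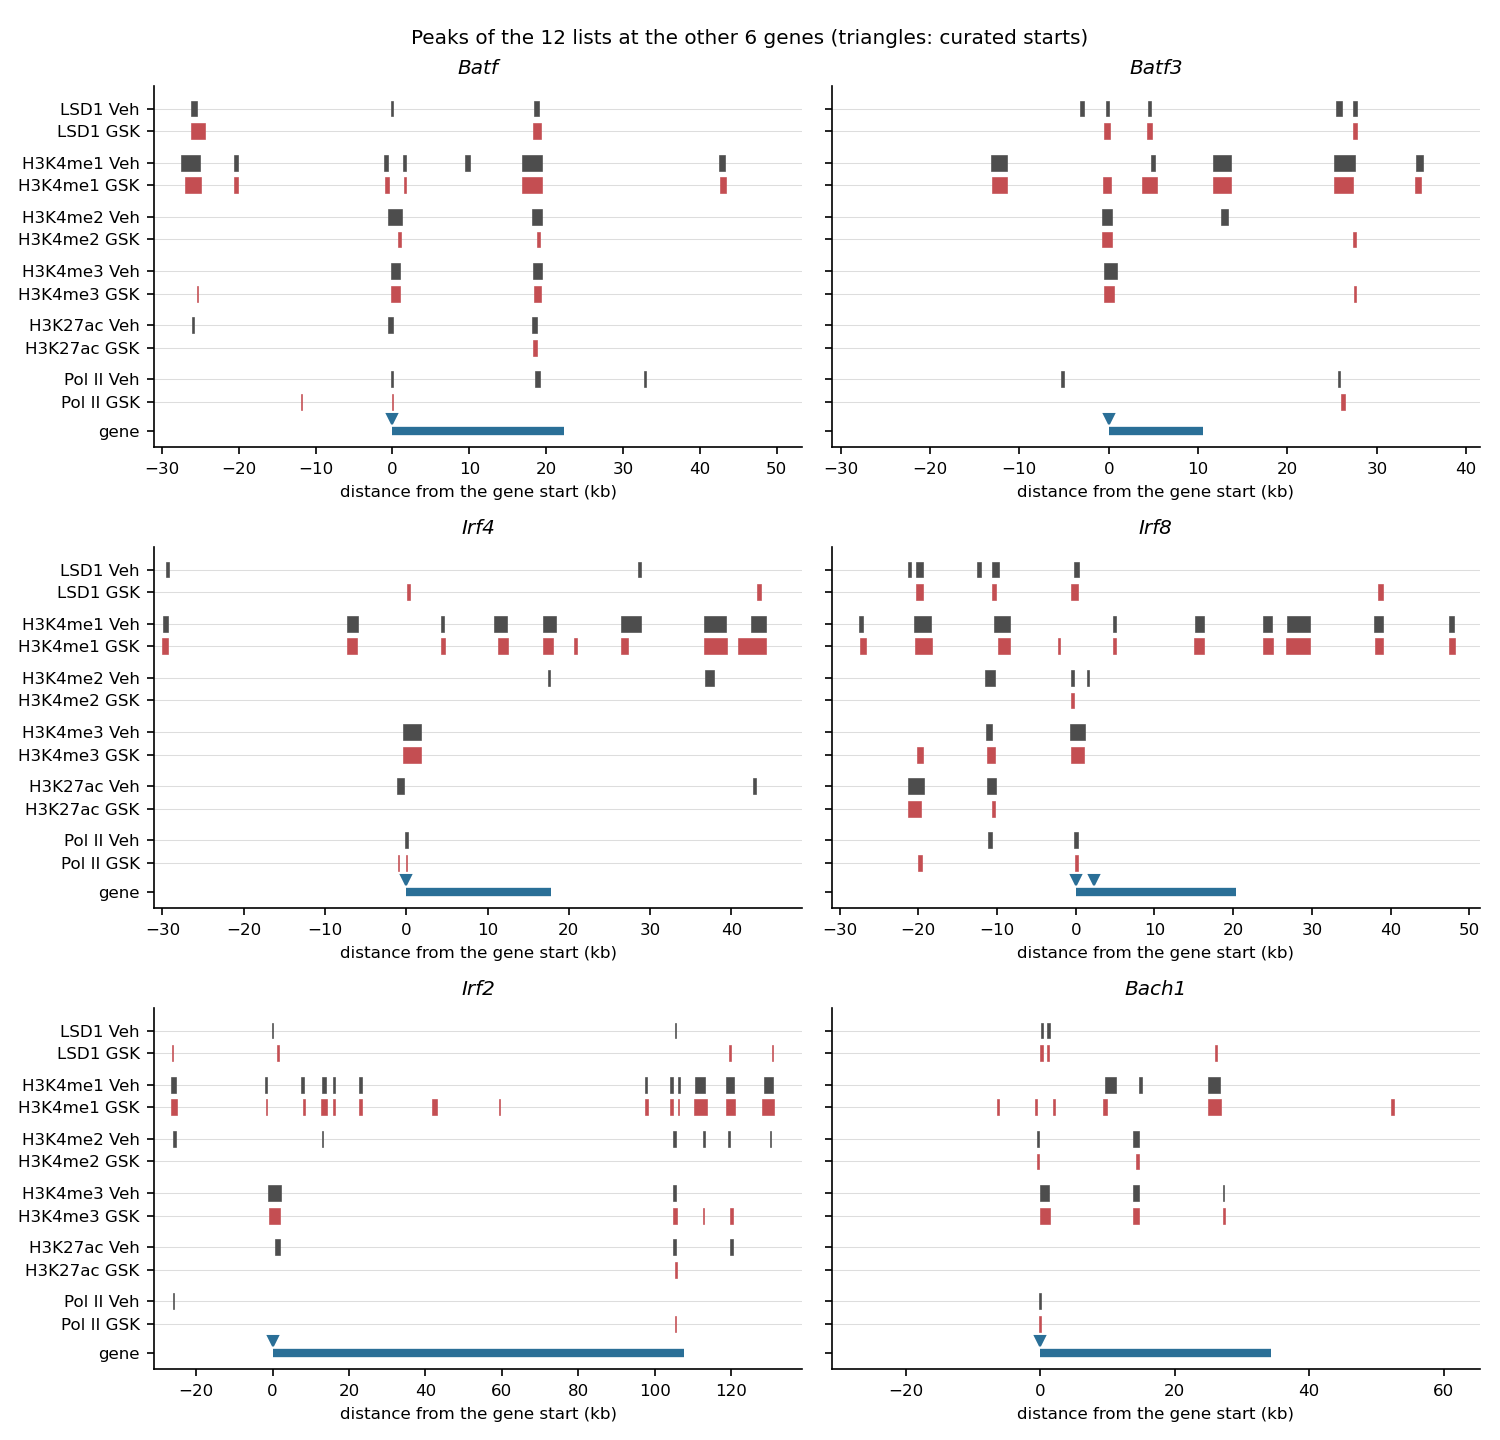
Peaks (bars) of the 12 lists (rows) along Batf, Batf3, Irf4, Irf8, Irf2 and Bach1, by distance from the gene start in kb (horizontal axis). Grey is Veh and red GSK, the blue line is the gene body and triangles are curated starts. Most H3K4me1 bars pair between treatments except at Bach1, where 4 of 6 GSK bars have no Veh partner. List-wide, 75.2% of GSK H3K4me1 peaks have one. The H3K4me2 row of Irf4 and Irf2 is empty in GSK.

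Bach2 (gene 12014, chr4:32238413-32586109, + strand) has its curated start at 32417435, well inside the gene body, and predicted transcripts start at 32238413 and 32238441. No list had a peak within 1 kb of the curated start. The upstream start carried LSD1 at 5.29-fold in Veh and 4.85-fold in GSK, and H3K4me3 at 4.58-fold over 1563 bp and 4.38-fold over 2000 bp, with −log10 p of 69.5 and 79.4. H3K4me2 was there in Veh only (3.58-fold) and H3K4me1 in GSK only (3.33-fold). H3K27ac (3.67 and 4.66-fold) and Pol II (4.58 and 2.83-fold) lay just inside the gene, under the same H3K4me3 peaks, in both treatments. Among peaks outside TSSs these H3K27ac peaks stood at the 50.4 and 54.9 percentiles and the Pol II peaks at the 88.9 and 14.8 percentiles. By these marks the upstream start, not the curated start, was the marked promoter of Bach2 in these cells. All of its peaks nevertheless count as outside TSSs in the shares above, which used curated starts only. With predicted starts counted as TSSs, a GSK peak overlapped 53.8% of 26 Veh LSD1 peaks outside TSSs at the 7 loci. The shares of the other antibodies were not recomputed in this way.

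Downstream of that promoter, intronic regions with LSD1, H3K27ac, Pol II and often H3K4me3 recurred over the first 128 kb. Peaks at the locus merged into 40 regions, of which 10 had H3K27ac in both treatments, 8 of those 10 also had Pol II in both, and 7 had LSD1 in both. In 2 of these 8, at 105 to 107 and 348 to 351 kb, the Pol II peaks of the treatments did not overlap one another. The 10 were the upstream start, 9.21 to 14.5, 19.2 to 20.6, 42.1 to 43.3, 80.7 to 81.8, 95.3 to 98.3, 105 to 107, 112 to 116 and 124 to 128 kb past it, and 348 to 351 kb past it, beyond the end of the gene. In the region at 9.21 to 14.5 kb, a single H3K4me3 domain of 4751 bp in Veh and 4793 bp in GSK spanned the LSD1 peak, which was 5.99-fold in Veh and 5.26-fold in GSK. This domain was wide but of low fold, 2.49 and 2.47, at the 1.92 and 1.98 percentiles of H3K4me3 peaks outside TSSs.

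The strongest LSD1 peak of all 7 loci by −log10 p lay 19.9 kb past the upstream start. It was 7.67-fold in Veh (−log10 p 28.7, 94.7 percentile) and 7.65-fold in GSK (−log10 p 26.7, 96.5 percentile), with summits at 32258336 in Veh and 32258344 in GSK. H3K27ac on it was 3.64-fold over 1404 bp in Veh (48.3 percentile) and 4.06-fold over 337 bp in GSK (21.4 percentile). Pol II was 5.26-fold in Veh (94.1 percentile) and 2.66-fold in GSK (2.34 percentile). H3K4me3 (3.24-fold) and H3K4me1 (1.83-fold) were there in GSK only. The summit window is 0% soft-masked and has an ETS core in capitals (chr4:32258186-32258485, + strand).
Bach2 intronic LSD1 summit: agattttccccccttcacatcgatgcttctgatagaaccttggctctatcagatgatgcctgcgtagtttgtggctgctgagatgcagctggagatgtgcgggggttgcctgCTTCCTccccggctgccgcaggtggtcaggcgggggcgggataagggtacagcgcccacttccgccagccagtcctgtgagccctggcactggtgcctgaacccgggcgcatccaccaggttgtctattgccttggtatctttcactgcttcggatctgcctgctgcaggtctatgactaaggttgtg

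By fold, the first H3K27ac peaks of Bach2 in Veh were those 350 kb (4.63), 42.6 kb (4.36) and 81.3 kb (3.90) past the upstream start. In GSK they were 5.04, 3.89 and 4.36-fold. Their percentiles were 90.3, 85.2 and 65.2 in Veh, and 74.6, 15.3 and 36.4 in GSK. The region at 42.6 kb also had the highest intronic Pol II peak, 5.59-fold in Veh (95.3 percentile) and 5.0-fold in GSK (96.7 percentile), and H3K4me3 of 6.28 and 6.65-fold. Beyond the gene end at 350 kb, LSD1 was 6.53-fold in Veh and 5.52-fold in GSK, and an H3K4me3 peak of 3.99-fold was in GSK only. H3K27ac at 52.9 kb (3.03-fold) was in Veh only, while LSD1 there, 3.90-fold in Veh and 5.03-fold in GSK, was in both. The first GSK-only LSD1 peaks by −log10 p lay at 150 kb (5.86-fold) and 41.0 kb (5.05-fold). The former stood on a Veh and GSK H3K4me2 peak of 5.35 and 4.93-fold, 1 of 3 H3K4me2 peaks outside TSSs found in both treatments over the 7 loci. The widest H3K4me1 peak, at 126 kb, was 3059 bp in Veh and 3340 bp in GSK. From 128 kb to the gene end no H3K27ac peak was found, and the Bach2 window also takes in the promoters of Gja10 and Casp8ap2, whose peaks were counted as TSSs of other genes.

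**Figure D5:**
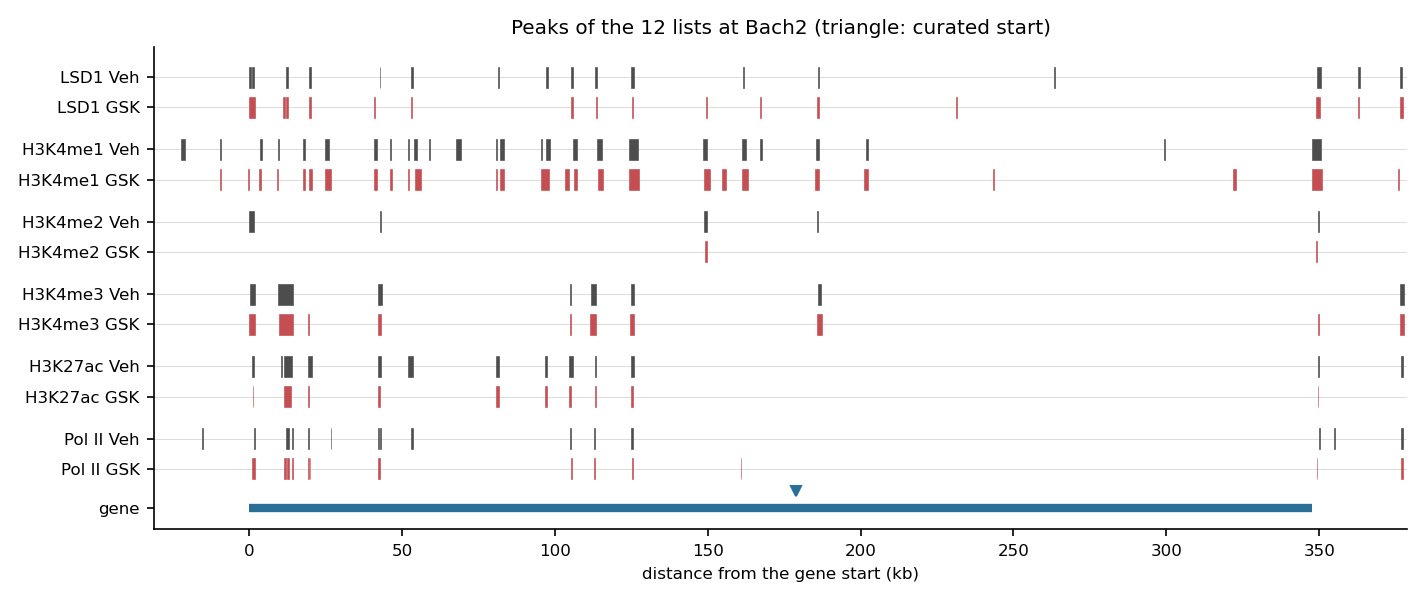
Peaks (bars) of the 12 lists (rows) along Bach2, by distance from the upstream start in kb (horizontal axis), with the gene body as a blue line and a triangle at the curated start. Grey is Veh and red GSK; H3K27ac and Pol II bars cluster in the first 128 kb and again near 350 kb, and no bar stands at the triangle.

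Bach1 (gene 12013, chr16:87698954-87733346, + strand) had LSD1, H3K4me2, H3K4me3 and Pol II at its TSS in both treatments. H3K4me3 was 5.83-fold in Veh and 5.44-fold in GSK, Pol II was 5.50 and 4.20-fold, H3K4me2 was 5.92 and 5.93-fold (86.3 and 81.1 percentiles), and LSD1 was 5.61 and 6.10-fold (81.0 and 78.0 percentiles). H3K4me1 had a TSS peak in GSK only, 3.16-fold. Over the locus H3K4me1 had 3 Veh and 6 GSK peaks, of which 1 was in Veh only and 4 were in GSK only. List-wide, a Veh peak overlapped 75.2% of GSK H3K4me1 peaks, and the 6 peaks here are too few to set Bach1 apart. No H3K27ac peak was found in the locus in either treatment. A second LSD1 peak 1.25 kb past the start was 4.14-fold in Veh and 4.19-fold in GSK, of which the GSK peak began just beyond the TSS window. In intron 4, 26.1 kb past the start, an LSD1 peak of 4.33-fold (−log10 p 6.68) was in GSK only, on the widest H3K4me1 peak of the locus (1771 bp in Veh, 1800 bp in GSK). Within the gene, near a predicted start 14.3 kb in, H3K4me3 was 5.15-fold in Veh and 4.93-fold in GSK and H3K4me2 was 3.83 and 4.94-fold.

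Both of the latter LSD1 regions of Bach1 hold TGANTCAGC, the extended AP-1 site that BACH and small MAF proteins bind, and were chosen to be shown after this was seen. Capitals mark this site on either strand, other TGANTCA sites, and ETS and RUNX cores. The first window lies 1.25 kb past the start (chr16:87700049-87700348) and the second in intron 4 (chr16:87724874-87725173), both on the + strand.
Bach1 first-intron LSD1 summit: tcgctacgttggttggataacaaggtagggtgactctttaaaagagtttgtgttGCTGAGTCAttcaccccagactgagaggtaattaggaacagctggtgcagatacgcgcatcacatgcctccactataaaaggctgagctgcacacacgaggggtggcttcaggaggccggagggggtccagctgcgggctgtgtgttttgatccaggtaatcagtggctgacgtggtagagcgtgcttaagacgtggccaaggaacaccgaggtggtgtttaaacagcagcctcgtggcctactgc
Bach1 intron 4 LSD1 summit of GSK: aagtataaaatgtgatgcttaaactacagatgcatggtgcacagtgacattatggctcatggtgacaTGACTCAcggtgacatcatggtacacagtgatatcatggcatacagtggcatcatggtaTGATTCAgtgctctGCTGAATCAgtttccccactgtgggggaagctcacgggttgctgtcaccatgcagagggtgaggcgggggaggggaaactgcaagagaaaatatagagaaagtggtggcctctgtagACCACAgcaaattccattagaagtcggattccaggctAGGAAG

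Over all 7 loci, the 300 bases around each LSD1 summit were searched on both strands for the sites these factors are known to use. TGANTCA was in 3 of 28 Veh windows outside TSSs (10.7%, list 17.1%) and in 8 of 28 GSK windows (28.6%, list 13.7%). TGANTCAGC, which contains TGANTCA, was in 0 of 28 Veh and 2 of 28 GSK windows (list 2.78% and 2.47%), and the Veh window 1.25 kb past the Bach1 start held it too, counted at a TSS. The composite arrangements of BATF and IRF, TTTC, a gap of 4 bases and TGANTCA or GAAA directly before it, were in none of the member windows. They are rare in the list too, in 0.239% and 0.517% of Veh LSD1 windows outside TSSs. Paired GAAA 2 bases apart was in 0 of 28 Veh and 1 of 28 GSK windows (list 4.62% and 4.15%). AGGAAG, the ETS core, was in 13 of 28 windows in each treatment (46.4%, list 45.7% in Veh and 42.8% in GSK), and TGTGGT, the RUNX core, in 6 of 28 Veh (21.4%, list 40.6%) and 8 of 28 GSK windows (28.6%, list 33.4%). A match describes letters in a window and not a bound site.

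Because Irf8, Batf3, Irf4 and Bach2 are also used by dendritic cells and B cells, the promoters of cell type markers were read in the same lists. All 8 CD8+ T cell markers (Cd3d, Cd3e, Cd3g, Cd8a, Cd8b1, Cd2, Lck, Cd5) had H3K4me3 in both treatments, and 5 had H3K27ac in Veh and 1 in GSK. Of the B cell markers, Cd79b and Ebf1 had H3K4me3 and Cd79a, Ms4a1 and Pax5 did not. Of 9 dendritic cell and macrophage markers, Flt3, Zbtb46 and Cd14 had H3K4me3, and Itgax, Csf1r, Lyz2, Clec9a, Xcr1 and Siglech did not. None of these B cell, dendritic cell and macrophage markers had an H3K27ac or Pol II promoter peak in either treatment. Neither Ncr1 nor Klrb1c of NK cells had H3K4me3. Of the CD4+ T cell list, Cd4 had no peak of any antibody and Zbtb7b had H3K4me3 and H3K4me1 in both treatments, with no H3K27ac or Pol II.

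Of 24 other genes of these pathways, H3K4me3 marked 22 promoters in Veh and 21 in GSK. Batf2 and Jund had none in either treatment, and Spi1, the ETS partner of IRF4 and IRF8 in other blood cells, had one in Veh only. LSD1 stood at 14 in Veh and 17 in GSK, Pol II at 17 and 15, H3K4me1 at 12 and 13, H3K4me2 at 13 and 7, and H3K27ac at 15 and 6. Over all promoters the shares were 35.2% and 40.7% for LSD1, 28.3% and 24.0% for Pol II, 29.4% and 35.7% for H3K4me1, 38.2% and 27.4% for H3K4me2, 20.3% and 8.51% for H3K27ac, and 49.4% and 50.6% for H3K4me3. Among the first of the list with an LSD1 or Pol II promoter peak in 1 treatment only, Irf5 had LSD1 in GSK only and Irf9, a subunit of the interferon-activated ISGF3 complex, in Veh only. Irf2bp2 had a promoter Pol II peak in Veh only. The H3K27ac and H3K4me2 lists of GSK were themselves shorter, and the part of list length in these counts was not tested.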

How the data were processed

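As the study's methods state, the authors mapped reads to mm10 with Bowtie2, removed duplicates and randomly picked reads to equal numbers for comparison. They called peaks with MACS2 against input. The study states that the ChIP-seq experiments were repeated, but each deposited list comes from 1 library. The deposited lists give each peak's fold enrichment over local background, a ratio, and its −log10 p and −log10 q. LSD1 and Pol II lists reach down to a −log10 p of about 3, and the histone lists are broad peaks. Veh and GSK folds are printed side by side, but folds of different lists are not on a common scale. For ranks, a fold was turned into its percentile among peaks of the same list and class (TSS or outside TSSs). Not every fold is printed with its percentile. Peaks were assigned with RefSeq GRCm38.p6 to loci (30 kb flanks) and TSSs (1 kb, curated transcripts), overlap was at least 1 bp, and intervals are Wilson 95%. Motifs were searched in 300 bases around LSD1 summits. Python 3.11.15, NumPy 2.4.6, SciPy 1.17.1 and Matplotlib 3.10.9 were used, and the overlap, percentile and motif code was tested on simulated data. Members and gene lists were chosen with earlier results of these data known. Per locus the text names TSS peaks, up to 3 Veh LSD1 peaks by −log10 p and 2 found in GSK only, up to 3 H3K27ac peaks by fold and the widest H3K4me1 peaks. Of the pathway and marker lists it names genes without H3K4me3 and up to 4 with LSD1 or Pol II in 1 treatment only. Other peaks named were chosen after their values were seen. Alternatives covered list length, threshold, TSS window, flank and overlap. Some listed items are not reported here.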

Additional observations from a re-analysis of the deposited data

How the results depend on the processing

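Of 180 recomputed values of 56 results, 158 stayed within the limits set for a change (1.5 times for a count, the 95% interval for a share) and 22 moved beyond them. With lists of equal length, Veh H3K4me2 peaks at the loci numbered 9 and Veh H3K4me2 promoters 2, Veh H3K27ac peaks numbered 13 and Veh H3K27ac promoters 0, and the share of GSK peaks overlapped by Veh was 44.4% for H3K4me2 and 71.4% for H3K27ac. At a stricter q, the counts were 8 Veh H3K4me2 peaks, 2 Veh H3K4me2 promoters, 3 Veh LSD1 promoters, 1 GSK H3K4me1 promoter, 1 Veh H3K27ac promoter, 3 GSK H3K27ac peaks and 13 GSK Pol II peaks. A TSS window of 2.5 kb gave 3 Veh and 5 GSK H3K4me1 promoters, and predicted transcripts gave 3 in Veh. Counting a Veh peak within 1 kb gave 81.8% for GSK Pol II. Without Bach2, the Veh share overlapped, TSS peaks included, was 95.5% for H3K4me1 and 40.0% for H3K27ac. The alternatives with predicted transcripts and without Bach2 were chosen after seeing the data. Ranking TSS peaks by −log10 p in place of fold changed the sign of the GSK minus Veh percentile in 4 of 18 comparisons: from 6.50 to -5.40 for Batf3 H3K4me3, from 0.200 to -5.10 for Irf8 LSD1, from 2.80 to -3.60 for Irf8 H3K4me3 and from -10.7 to 3.30 for Bach1 H3K4me3. For Irf8 H3K4me2 it moved the value from -1.55 to -12.4. Apart from the effect of shorter lists and fewer peaks that these settings build in, the cause was not tested. No paired analysis was possible because each antibody and treatment had 1 library. With no read numbers in the lists, a missing peak cannot be told from one under the threshold.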
